A study of Mus musculus with 12 samples.

Results

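Mature B cells of the spleen settle as follicular (FO) or marginal zone (MZ) B cells, and the 9 genes described here, Fcer2a, Cr2, Cd1d1, Cd9, Cd36, Notch2, Dtx1, Klhl6 and Lbh, were chosen by symbol as a set tied to that identity. They are 9 of the 22561 genes in the count table. All 9 of 9 passed the filter on low counts, which left 9431 genes for testing.

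FO B cells were sorted from the spleens of C57BL6 mice aged 10 weeks by surface markers that included B220hi, AA4.1-, CD23+ and CD21mid, and their RNA was counted in 4 groups of 3 samples. The groups were unstimulated cells, cells given IFNα (a type I interferon) at 0.1 μg/mL, cells given CpG (ODN1826, a synthetic DNA sensed by TLR9) at 1 μg/mL, and cells given both, with 12 h of stimulation. All groups were wild type. Whether the unstimulated cells were also kept in culture was not given in the sources used here, and a legend of the study gives a lower CpG dose of 0.1 μg/mL for the combination. No source used here says that the 3 samples of a group came from separate animals, so the p-values measure the spread between these samples, which may be technical. CD23 is the product of Fcer2a and CD21 is a product of Cr2, so both genes are tied to the gate that selected the starting cells. The gate was the same for all groups.

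As background, FO B cells recirculate through the follicles and carry high CD23, whereas MZ B cells stay beside the marginal sinus, carry high CD21 and CD1d, and respond quickly to blood-borne antigen. A precursor takes the MZ path when its Notch2 receptor is bound by the ligand Dll1: the receptor is cut, its inner part enters the nucleus with the DNA-binding factor RBPJ, and targets such as Dtx1 and Hes1 are switched on. Strong activation of a mature B cell is known to remove much of the surface program that marks its resting state.

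The libraries tag each transcript near its 3′ end with a unique molecular identifier, so a count stands for a molecule and does not grow with transcript length. Levels below are normalized CPM, in which the counts of a sample are divided by its total after scaling with edgeR's TMM factors and put on the usual CPM scale. Differences are log2 fold changes ± standard error (SE) from edgeR's quasi-likelihood test over all 9431 genes, and a gene was called where the Benjamini-Hochberg adjusted p was under 0.1 and the log2 fold change was over 1 in size. Totals were between 922450 and 2923865 counts per sample with the smallest in the unstimulated group and the largest in the combination, and the 12 pairs of samples within groups all differed by more than counting noise. The summed level of 5 B cell markers (Ms4a1, Cd79a, Cd79b, Pax5, Ptprc) spanned 5990 to 6737 CPM across the unstimulated samples and 6122 to 6924 across the IFNα samples, but 1220 to 1381 after CpG and 1091 to 1171 after the combination, and 4 of the 5 were called lower with CpG, as were 25.5% of all genes. Markers of other cells were low: summed levels reached 37.4 CPM for 7 myeloid genes, 15.0 for 6 platelet genes, 3.64 for 4 T cell genes and 1.07 for Clu, the single follicular dendritic or stromal marker in the table. Hemoglobin and other erythroid transcripts reached 345 CPM in an unstimulated sample, 336 in an IFNα sample, and no more than 60.8 after CpG and 72.0 after the combination. The B cell, platelet and myeloid sums were lower with CpG than in unstimulated cells without overlap, and the erythroid sums mostly so, as several of the 9 genes were, and their part in the results was not tested. In bulk RNA, fewer cells that express a gene and less of its RNA per cell cannot be told apart.

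Promoter sequence shows where RefSeq transcripts of the regulated genes begin and which letters precede them. RefSeq windows on GRCm38.p6 were found for 8 of the 9 genes, all but Cd1d1. Of these windows, 4 are printed below as the 250 bases before the start site, because Fcer2a and Cr2 fell together, Cd36 rose with CpG and Klhl6 fell with the combination of stimuli. All 4 genes lie on the minus strand and are written 5′ to 3′ on that strand. The windows are chr8:3694175-3694424 for Fcer2a (the most distal of its 3 RefSeq starts), chr1:195176720-195176969 for Cr2, chr5:17835897-17836146 for Cd36 and chr16:19983050-19983299 for Klhl6. The Cd36 window precedes an internal start, inside the annotated span of the gene and not at its 5′ end. Capitals mark matches to the core TGGGAA, which RBPJ is known to bind.
Fcer2a: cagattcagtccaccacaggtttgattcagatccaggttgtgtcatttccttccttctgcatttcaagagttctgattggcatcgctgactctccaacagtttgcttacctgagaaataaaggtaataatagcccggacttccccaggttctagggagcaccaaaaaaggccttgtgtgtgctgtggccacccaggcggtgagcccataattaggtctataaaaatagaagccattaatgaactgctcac
Cr2: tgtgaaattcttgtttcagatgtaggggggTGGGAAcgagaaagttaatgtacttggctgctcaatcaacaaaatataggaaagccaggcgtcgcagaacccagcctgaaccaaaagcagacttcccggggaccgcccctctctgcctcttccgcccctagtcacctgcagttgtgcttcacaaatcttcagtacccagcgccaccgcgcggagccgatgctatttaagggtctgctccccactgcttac
Cd36: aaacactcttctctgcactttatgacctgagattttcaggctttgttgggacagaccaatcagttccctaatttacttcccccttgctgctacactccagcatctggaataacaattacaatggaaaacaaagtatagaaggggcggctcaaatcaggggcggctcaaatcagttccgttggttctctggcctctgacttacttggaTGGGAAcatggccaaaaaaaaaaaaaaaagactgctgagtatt
Klhl6: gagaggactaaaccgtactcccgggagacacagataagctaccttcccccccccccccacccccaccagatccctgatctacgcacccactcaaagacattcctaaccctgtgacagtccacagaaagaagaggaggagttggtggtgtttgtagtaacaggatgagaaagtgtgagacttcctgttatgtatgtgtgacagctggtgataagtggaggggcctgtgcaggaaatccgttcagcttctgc

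The RBPJ core, an interferon motif and an NF-κB motif were searched on both strands of the whole RefSeq windows, which also hold the 50 bases after the start. The RBPJ core TGGGAA was present in 25.6% of 32851 mouse windows, so a single match is common. Among the 9 genes it was found once in Cr2, 220 bases before the start, once in Cd36, 43 bases before the internal start, once in Cd9, and in both further windows of Fcer2a. It was not found in the windows of Notch2, Dtx1, Klhl6 or Lbh, nor in the Fcer2a window shown. The interferon-response letters GAAANNGAAA (3.44% of windows) and the NF-κB letters GGGANNTTCC (1.47% of windows) matched in none of the windows of the 8 genes. A match or its absence describes these letters only.

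Most of the 9 genes were lower after stimulation. With IFNα alone, 6 of 9 were called lower and 0 higher, beside 4.07% of all tested genes called lower and 4.56% higher. With CpG alone, 5 were called lower (25.5% of all genes) and Cd36 was called higher (20.1% of all genes). With CpG + IFNα against unstimulated cells, 6 were called lower (25.6% of all genes) and 0 higher (20.3%). When IFNα was added to CpG, 5 of 9 were called lower than with CpG alone (2.01% of all genes) and 0 higher (2.95%). When CpG was added to IFNα, 6 were called lower (25.5% of all genes) and 1 higher (18.7%). Across the 9 genes, the median log2 fold change came to −1.01 with IFNα, −2.06 with CpG and −3.15 with both against unstimulated cells, where the median of all tested genes was 0.00, −0.03 and −0.01. It was −1.28 for CpG + IFNα against CpG, where the median of all genes was −0.04. These comparisons share samples, so they are not independent of each other. Cd36, Klhl6 and Lbh were already known to be among the genes with the smallest p-values in CpG + IFNα against CpG when the set was drawn up, so their falls there are not independent evidence of a direction, nor are their interactions, of which that comparison is a term.

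**Figure D1:**
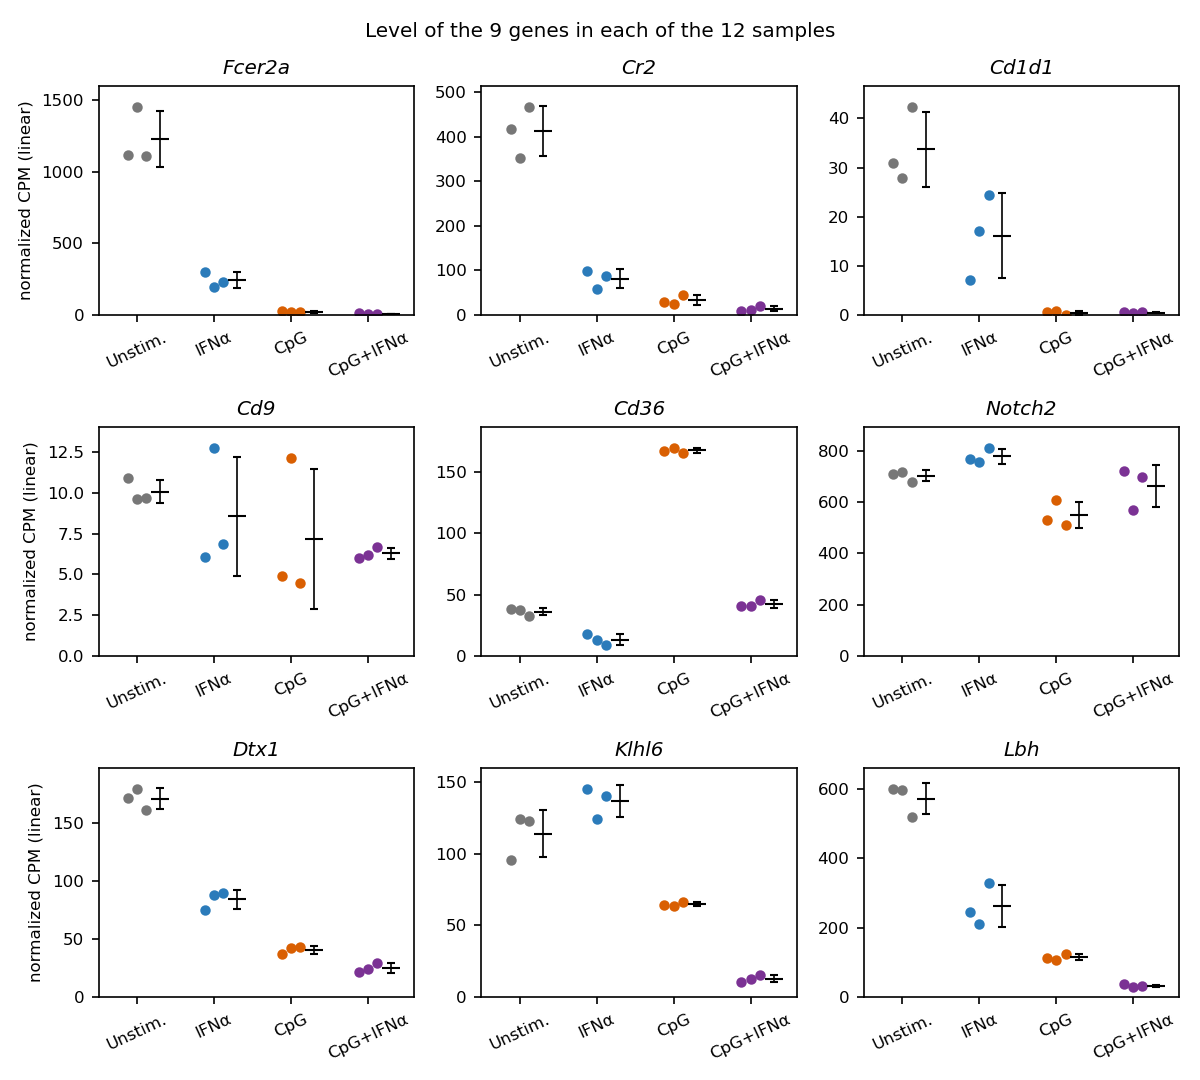
Normalized CPM (linear axis, a separate scale for each gene) of the 9 genes in every sample, with 3 points per group and the mean ± SD beside them. Fcer2a, Cr2, Dtx1 and Lbh step down from unstimulated to IFNα, CpG and CpG + IFNα without overlap between neighboring groups, whereas Cd36 peaks at 166 to 170 CPM with CpG.

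Fcer2a (GRCm38 chr8:3681737-3694175, minus strand) encodes CD23, the low-affinity IgE receptor and the classical FO marker. Its level in the 3 unstimulated samples was 1118, 1454 and 1109 CPM, and with IFNα it was 303, 196 and 233. With CpG it was 28.2, 17.8 and 18 CPM, and with both stimuli it was 10.4, 6.90 and 7.19. None of the 4 groups overlapped, in the order unstimulated, IFNα, CpG and CpG + IFNα. IFNα alone thus left 19.9% of the unstimulated level, CpG 1.74% and both 0.664%. The log2 fold change against unstimulated cells was −2.34 ± 0.14 with IFNα (adjusted p = 2.67e-15), −5.84 ± 0.18 with CpG (adjusted p = 3.89e-23) and −7.25 ± 0.20 with both (adjusted p = 1.45e-24). Adding IFNα to CpG lowered it by a further 2.66-fold (log2 fold change −1.41 ± 0.29, adjusted p = 6.68e-04), on 25 to 46 counts per CpG sample and 14 to 20 per sample with both. After all samples were drawn down to the smallest total, this last difference was −0.87 with an adjusted p of 0.16 and was no longer called. CpG lowered Fcer2a in cells that had IFNα as well, by −4.91 ± 0.21 on the log2 scale (adjusted p = 9.74e-20).

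Cr2 (chr1:195136811-195176716, minus strand) encodes complement receptors CD21 and CD35, which sit with CD81 in the B cell coreceptor and are higher on MZ than on FO B cells. Unstimulated samples had 418, 353 and 467 CPM, and IFNα samples had 98.9, 57.2 and 88.5. The level was 28.9, 24.2 and 45.4 CPM with CpG and 9.27, 11.7 and 21.1 with both. All 4 groups were apart, in the same order as for Fcer2a. Cr2 kept 19.8% of its unstimulated level with IFNα, close to the share Fcer2a kept, but 7.96% with CpG and 3.40% with both. The log2 fold change was −2.38 ± 0.17 with IFNα (adjusted p = 4.85e-13), −3.61 ± 0.19 with CpG (adjusted p = 1.69e-17) and −4.89 ± 0.21 with both (adjusted p = 5.10e-20). IFNα on top of CpG gave −1.28 ± 0.27 (adjusted p = 7.45e-04). Without CpG replicate 3, the sample with the most Cr2 in its group, that difference was −0.94 and fell short of the called size.

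The balance of the 2 receptors shifted with CpG. Counts of Cr2 per count of Fcer2a were between 0.243 and 0.421 in the 6 samples without CpG, and between 0.895 and 2.93 in the 6 samples with CpG. Cr2 had more counts than Fcer2a in 5 of the 6 samples with CpG and in 0 of the 6 without. Both genes fell, Fcer2a further, and the ratio was not put to a test. The samples with CpG held 14 to 46 counts of Fcer2a and 17 to 91 of Cr2, so single ratios there are imprecise.

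Cd1d1 (chr3:86995834-86999441, minus strand) encodes CD1d, which presents lipids to natural killer T cells and is high on MZ B cells. The 3 unstimulated samples held 34, 26 and 48 counts (30.9, 27.8 and 42.4 CPM), and the IFNα samples held 7, 28 and 32 counts (7.06, 17.0 and 24.4 CPM). In the 6 samples with CpG, the gene had 1 count or none. Samples with CpG were therefore at the floor of 3 counts per sample, and Cd1d1 was at least 18.5-fold lower with CpG and at least 24.0-fold lower with both stimuli than in unstimulated cells. Against IFNα alone, the combination was at least 11.5-fold lower. The IFNα samples did not overlap the unstimulated ones, with a log2 fold change of −1.01 ± 0.30 (adjusted p = 0.0132). That call rested on single samples: it was lost without unstimulated replicate 3 (−0.84, adjusted p = 0.102), without IFNα replicate 1 (−0.72), and after drawing down to the smallest total (−0.76, adjusted p = 0.21). Whether IFNα changed Cd1d1 in the presence of CpG could not be measured at this depth.

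Cd9 (chr6:125460266-125494791, minus strand) encodes a tetraspanin found on MZ and B-1 cells. It was the least abundant of the 9 genes in unstimulated cells, with 10.9, 9.63 and 9.71 CPM. The level was 6.05, 12.8 and 6.87 CPM with IFNα, 4.91, 12.1 and 4.49 with CpG, and 6.0, 6.21 and 6.68 with both. Neighboring groups overlapped throughout the order of the means, and only the samples with both stimuli lay wholly below the unstimulated ones. No comparison was called, and the log2 fold changes against unstimulated cells were −0.17 ± 0.40, −0.56 ± 0.41 and −0.68 ± 0.39, on 6 to 21 counts per sample. Without CpG replicate 2, the sample with the most Cd9 in its group, the CpG difference was −1.06 (adjusted p = 0.0371) and would have been called. The genes Gm26728 and Gm28809, overlap Cd9 on the opposite strand, and the strand setting of the counting was not given in the sources used here, so reads of the 3 genes may not be separable.

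Cd36 (chr5:17781690-17888801, minus strand) encodes a scavenger receptor that takes up lipids and is carried by MZ more than FO B cells. Unlike the other 8 genes, it was called higher with CpG. Its level was 38.2, 37.4 and 32.6 CPM in unstimulated samples and 18.2, 12.8 and 9.16 with IFNα. CpG samples had 167, 170 and 166 CPM, and samples with both stimuli had 40.4, 41.1 and 45.7. CpG raised Cd36 4.64-fold (log2 fold change 2.21 ± 0.15, adjusted p = 1.59e-14), and IFNα alone lowered it 2.77-fold (−1.47 ± 0.23, adjusted p = 7.97e-06). IFNα added to CpG lowered it 3.95-fold (−1.98 ± 0.13, adjusted p = 4.82e-14). With both, the samples sat just above the unstimulated range, but the difference of 0.23 ± 0.17 was not called (adjusted p = 0.227). Against IFNα alone, CpG + IFNα was higher by 1.7 ± 0.20 (adjusted p = 5.76e-09). Platelets also carry Cd36 and Cd9. Their markers Pf4 and Gp9 had no count in any sample. The 6 platelet genes in the table summed to 10.0 to 15.0 CPM in unstimulated samples, 2.29 to 8.07 with IFNα and at most 1.5 in samples with CpG. The 7 myeloid markers in the table summed to 4.91 to 7.49 CPM with CpG and 5.17 to 7.19 with both. Cd68 held most of that, with 20 and 34 counts over the 3 samples of each group, while Lyz2, Cd14 and S100a8 had no count in these 6 samples. The part of platelet or myeloid RNA in the Cd36 and Cd9 values was not tested.

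**Figure D2:**
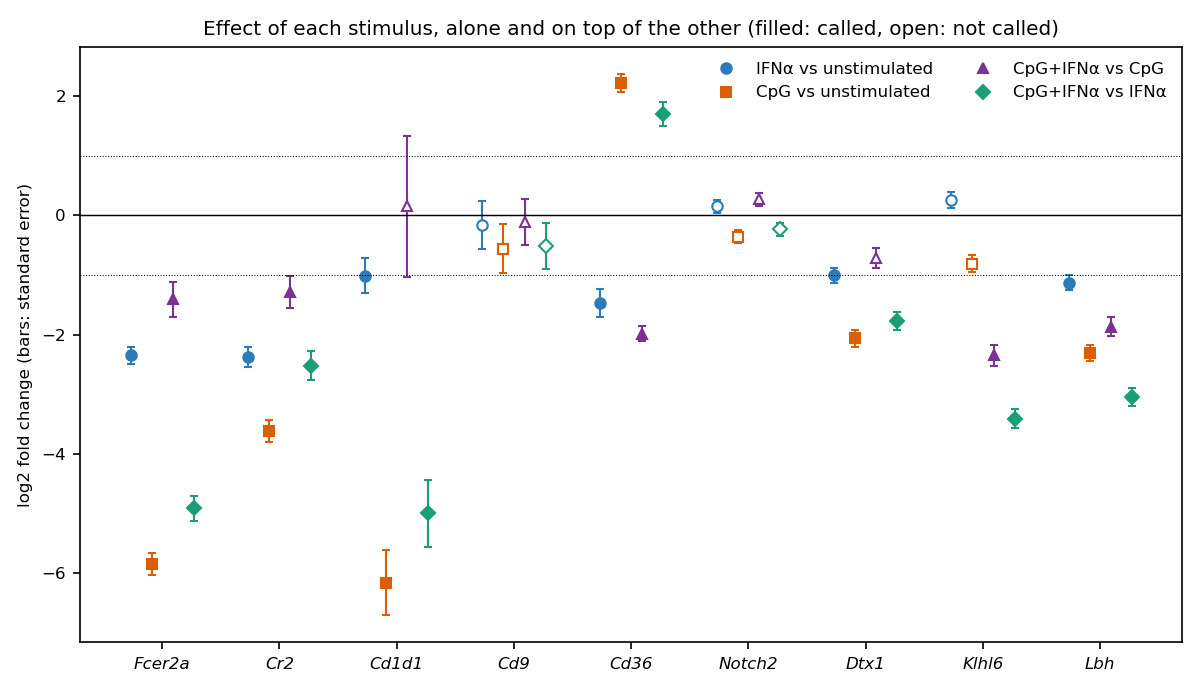
Log2 fold change ± SE of the 9 genes for IFNα and CpG alone against unstimulated cells, and for each stimulus added to the other. Filled symbols were called and open symbols were not; dotted lines mark a log2 fold change of 1 in size. The values for Cd1d1 with CpG are fitted against at most 1 count per sample and are not bounds. Cd36 is the only gene with called values above 0, at 2.21 and 1.7.

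Notch2 (chr3:98013527-98150361, plus strand) encodes the receptor that directs cells to the MZ fate, and its RNA was called in no comparison. Samples had 712, 719 and 680 CPM unstimulated, 768, 756 and 812 with IFNα, 531, 609 and 509 with CpG, and 720, 568 and 697 with both. The IFNα samples were the highest and did not overlap the unstimulated ones, but the log2 fold change was 0.15 ± 0.11 (adjusted p = 0.397). CpG samples were all below the unstimulated range, with a log2 fold change of −0.36 ± 0.11 (adjusted p = 0.00497), which is under the size required for a call. The other differences were −0.09 ± 0.11 for both stimuli against none, 0.27 ± 0.11 for IFNα added to CpG and −0.24 ± 0.11 for CpG added to IFNα, and none was called. Gm42819 and Gm42820 overlap Notch2 on the same strand, so their reads could be shared.

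Dtx1 (chr5:120680202-120711927, minus strand) encodes Deltex1, a ubiquitin ligase and target of Notch2 in MZ B cells. Its level was 172, 180 and 161 CPM unstimulated, 74.7, 88.2 and 90.0 with IFNα, 36.8, 42.1 and 43.4 with CpG, and 21.3, 24.1 and 29.3 with both. The 4 groups did not overlap, and Dtx1 was lower in every stimulated sample although Notch2 was not. The log2 fold change was −2.06 ± 0.14 with CpG (adjusted p = 1.23e-14) and −2.78 ± 0.14 with both (adjusted p = 1.04e-17). With IFNα it was −1.01 ± 0.13 (adjusted p = 2.65e-07), at the edge of the size required: it was −1.0, −0.97 and −0.93 without unstimulated replicate 1, unstimulated replicate 2 and IFNα replicate 1, which ended the call although the adjusted p stayed under 0.1. IFNα added to CpG gave −0.71 ± 0.16 (adjusted p = 0.00248), which was under that size, and CpG added to IFNα gave −1.77 ± 0.15 (adjusted p = 4.18e-12).

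Klhl6 (chr16:19946496-19983037, minus strand) encodes a B cell adaptor that brings substrates to the CUL3 ubiquitin ligase and is needed for germinal center formation. It had 95.5, 124 and 123 CPM in unstimulated samples and 145, 124 and 140 with IFNα, and these ranges overlapped. It had 64.5, 63.4 and 66.4 CPM with CpG, and 10.4, 12.4 and 15.4 with both stimuli. Neither stimulus alone gave a call: the log2 fold change was 0.25 ± 0.13 with IFNα (adjusted p = 0.195) and −0.81 ± 0.14 with CpG (adjusted p = 5.72e-06, under the size required). Both together lowered Klhl6 8.89-fold (−3.15 ± 0.17, adjusted p = 3.78e-17). The fall was 5.07-fold against CpG alone (−2.34 ± 0.18, adjusted p = 1.43e-12) and 10.6-fold against IFNα alone (−3.41 ± 0.16, adjusted p = 1.83e-18).

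Lbh (chr17:72918305-72941947, plus strand) encodes a small transcriptional cofactor first described in limb bud and heart. The unstimulated samples had 601, 596 and 521 CPM, and the IFNα samples 246, 211 and 330. With CpG the level was 114, 106 and 125 CPM, and with both it was 36.5, 29.0 and 30.3. No groups overlapped. Against unstimulated cells, the called differences were −1.13 ± 0.13 with IFNα (adjusted p = 1.58e-08) and −2.31 ± 0.13 with CpG (adjusted p = 3.21e-16). IFNα added to CpG gave −1.86 ± 0.16 (adjusted p = 5.69e-11), which was called. Both stimuli together left 5.58% of the unstimulated level (−4.17 ± 0.15, adjusted p = 1.35e-21). CpG added to IFNα gave −3.05 ± 0.16 (adjusted p = 7.60e-18). Without IFNα replicate 2, the IFNα effect was −0.98, just under the size required for a call.

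Whether the effect of IFNα differed with and without CpG was tested as an interaction, the log2 fold change of IFNα with CpG minus that without. The term without CpG is against unstimulated cells, and whether these were cultured is not known. For any gene, an effect of culture would enter that term and cannot be told apart from the interaction. It was called below 0 for Klhl6 and above 0 for Cr2, 1 of 9 genes in each direction, where 3.17% and 3.09% of all tested genes were called below and above 0. For Klhl6, the single effects added up to −0.56 on the log2 scale, whereas the combination gave −3.15, and the interaction was −2.60 ± 0.22 (adjusted p = 3.78e-10). For Cr2, the single effects added up to −5.99 and the combination gave −4.89 (interaction 1.09 ± 0.33, adjusted p = 0.0306). The call for Cr2 was lost with DESeq2 (adjusted p = 0.192) and without IFNα replicate 2, CpG replicate 1, CpG replicate 2 or CpG + IFNα replicate 3, where the value was 0.86, 0.99, 0.92 and 0.73. Fcer2a had a similar value of 0.93 ± 0.34 (adjusted p = 0.0804), just under the size required. It was called without unstimulated replicate 3 (1.07), IFNα replicate 1 (1.1) or CpG replicate 1 (1.18), and after drawing down (1.57). Lbh had −0.74 ± 0.21 (adjusted p = 0.0197), also under that size. Cd36 fell with IFNα in both settings, and the interaction of −0.51 ± 0.28 was not called (adjusted p = 0.272). Dtx1 (0.29 ± 0.21), Notch2 (0.12 ± 0.16) and Cd9 (0.05 ± 0.56) were not called either, and for Cd1d1 the value could not be measured.

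**Figure D3:**
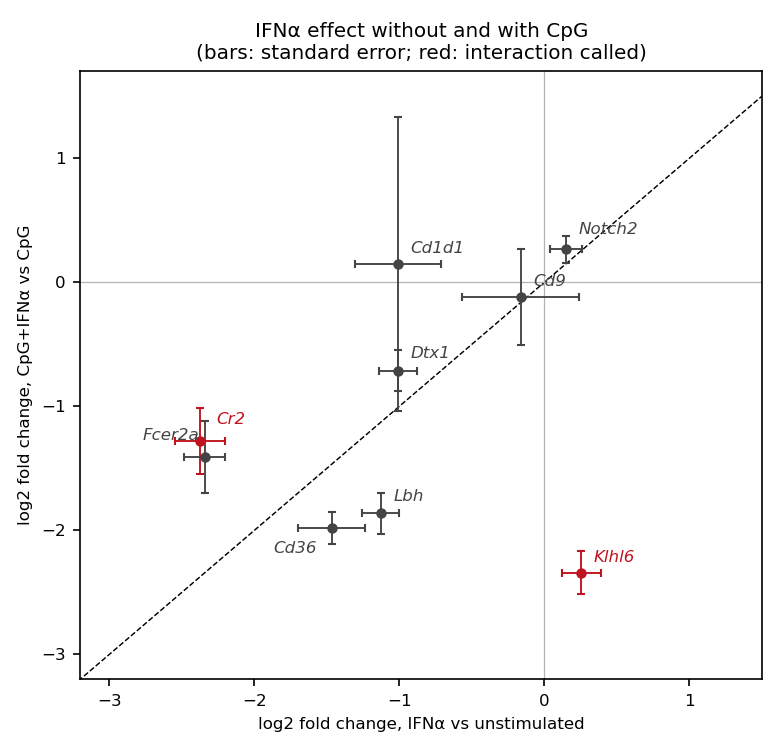
Log2 fold change of IFNα against unstimulated cells (horizontal axis) and of CpG + IFNα against CpG (vertical axis) for the 9 genes, with SE as bars; the dashed line marks equal effects and red marks a called interaction. Klhl6 lies far below the line (0.25 and −2.34), and Cr2 lies above it (−2.38 and −1.28) beside Fcer2a.

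The 9 genes were set beside larger lists of genes known for the same roles. Of 7 follicular genes reported here, Fcer2a among them, 6 were called lower with CpG (25.5% of all genes) and 0 higher. Those with the smallest p-values besides Fcer2a were Klf2, a factor that keeps B cells quiescent and recirculating (log2 fold change −5.72), Gpr183, an oxysterol receptor that positions B cells (−5.36), and Itgb7, an integrin chain used in homing. Itgb7 had at most 3 counts per CpG sample and was at least 68.4-fold lower than in unstimulated cells. The exception was Ccr7, the chemokine receptor that draws cells toward the T zone (0.63, not called). With IFNα, Fcer2a, Klf2 (−1.45) and Ccr7 (−1.17) were called lower and 0 of these 7 higher (4.07% and 4.56% of all genes). When IFNα was added to CpG, Fcer2a and Klf2 (−1.14) were called lower and 0 of these 7 higher (2.01% and 2.95% of all genes). CpG + IFNα against unstimulated cells gave 0 higher and 6 lower (20.3% and 25.6% of all genes), and against IFNα 1 higher, Ccr7 (2.07), and 6 lower (18.7% and 25.5%). The interaction was called above 0 for Ccr7 (1.44), beside 3.09% of all genes.

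The MZ list held 16 genes, of which 12 passed the filter and 6 belong to the set of 9. Its members did not move one way. With CpG, 6 of 12 were called lower (25.5% of all genes) and 2 higher (20.1% of all genes), Cd36 and Fcrl5, an Fc receptor-like protein of MZ B cells that rose from 24.2 to 118 CPM (log2 fold change 2.27). With IFNα, 6 were called lower (4.07% of all genes), among them Pld4, a lysosomal nuclease (−1.26), and 1 higher (4.56%), Plac8, which rose from 360 to 2189.5 CPM (2.61). Plac8 fell with CpG (−2.90) and was higher again when IFNα was added to CpG (2.57). In CpG + IFNα against CpG, where 2.01% of all genes were called lower and 2.95% higher, 4 were called lower, Cd36, Cr2, Pld4 (−1.26) and Mzb1, a chaperone of immunoglobulin secretion (−1.01), and 1 higher. The combination gave 1 higher and 5 lower against unstimulated cells (20.3% and 25.6% of all genes), and 2 higher and 7 lower against IFNα (18.7% and 25.5%). The interaction (3.09% of all genes above 0 and 3.17% below) was called above 0 for Cr2 and below 0 for Mzb1 (−1.81).

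**Figure D4:**
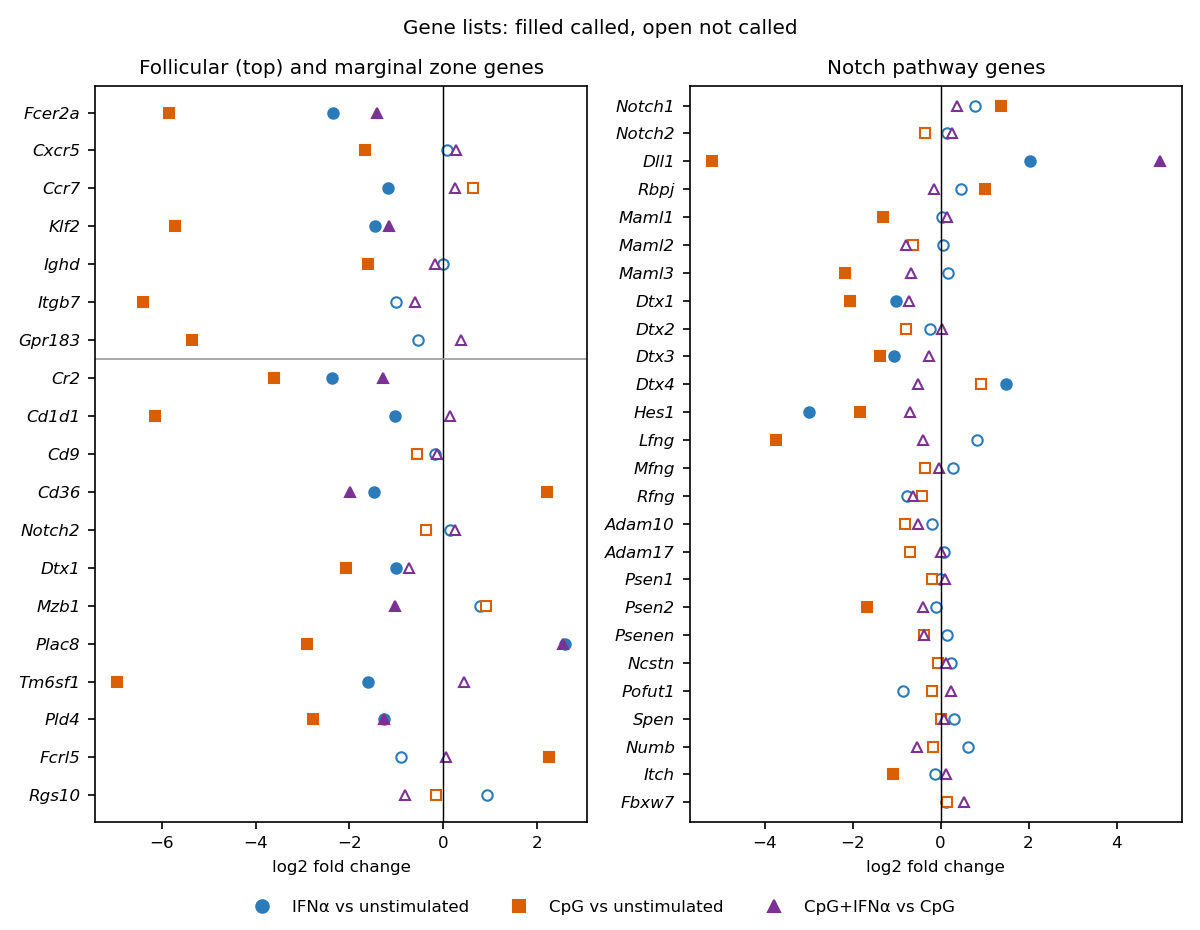
Log2 fold change of the tested genes of the follicular list (7 genes), the MZ list (12 genes) and the Notch pathway (26 genes) for IFNα or CpG against unstimulated cells and for CpG + IFNα against CpG; filled symbols were called. Follicular genes other than Ccr7 lie to the left with CpG, whereas Cd36 and Fcrl5 of the MZ list lie to the right; Cd1d1, Itgb7, Tm6sf1 and Dll1 had at most 3 counts per CpG sample, so their positions there are fitted values only.

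Around Notch2 and Dtx1, 26 of 36 genes of the Notch pathway passed the filter. With CpG, 9 of 26 were called lower (25.5% of all genes) and 2 higher (20.1% of all genes; median log2 fold change −0.52, against −0.03 for all genes). The called falls included Lfng, a glycosyltransferase that tunes receptors for Delta ligands (−3.73), Psen2, a subunit of the γ-secretase that cuts the receptor (−1.68), and Hes1, a target (−1.82). The 2 called higher were Rbpj (1.01), which encodes RBPJ, and Notch1 (1.37). With IFNα, 3 were called lower and 2 higher (4.07% and 4.56% of all genes). Hes1 fell from 56.6 to 7.11 CPM (−2.99), and Dtx4, a relative of Dtx1, rose from 4.32 to 12.5 CPM (1.48). With IFNα added to CpG, Hes1 was at 8.62 to 11.8 CPM against 12.8 to 18.4 with CpG, a log2 fold change of −0.69 (adjusted p = 0.0808) that was under the size required, and its interaction of 2.30 was called. Dll1, the ligand, was at 2.80 CPM unstimulated, 11.8 with IFNα and 2.66 with both, and had no count in the 3 CpG samples; it was the only gene of the list called in CpG + IFNα against CpG (2.95% of all genes higher), where it was at least 1.45-fold higher. The combination gave 1 higher and 10 lower against unstimulated cells (20.3% and 25.6% of all genes) and 0 higher and 10 lower against IFNα (18.7% and 25.5%), and the interaction 2 above 0 and 1 below (3.09% and 3.17%), Dtx4 (−2.00).

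Partners of single members were counted in the same way, beside the shares of all genes called lower with IFNα (4.07%), with CpG (25.5%), with IFNα added to CpG (2.01%), and with both against unstimulated (25.6%) or IFNα-treated cells (25.5%). Of 7 genes of the CD21 coreceptor and the tetraspanins reported here, 4 were called lower with CpG, including Cd37 (−2.29) and Cd53 (−1.94), while with IFNα, or with IFNα added to CpG, Cr2 was the only gene called; the combination had 4 lower against either unstimulated or IFNα-treated cells, and 0 of 7 were higher in these 5 comparisons. All 5 tested genes of CD1d assembly and lipid loading were called lower with CpG. Among them, Gm2a and Psap, which make lipid-transfer proteins, fell by 3.34 and 2.66 on the log2 scale. B2m, the light chain that pairs with CD1d, was higher when IFNα was added to CpG (1.04), as was Npc2 (1.08), whereas Gm2a was lower (−1.07), beside 2.95% of all genes called higher and 2.01% lower. Against unstimulated or IFNα-treated cells the combination had 3 of these 5 lower, and with IFNα alone Cd1d1 was the only one called. Of 5 genes listed as Klhl6 and its partners, Cul3 and Rbx1 were called higher with CpG (1.29 and 1.34), beside 20.1% of all genes. Rbx1 was also called higher with both against unstimulated cells (1.34, beside 20.3% of all genes), where Cul3 was at 0.50 and was not called. Klhl6 was the only one of these 5 called lower in any comparison.

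The 4 genes of CD23 control were Fcer2a, Il4ra and Stat6, which carry the IL-4 signal that raises CD23, and Adam10, the protease that sheds it. With CpG (25.5% of all genes lower), Il4ra (−2.84) and Stat6 (−1.28) were called lower beside Fcer2a, and Adam10 was at −0.80 and was not called. All 4 were called lower with both stimuli than in unstimulated or IFNα-treated cells, beside 25.6% and 25.5% of all genes. Fcer2a was the only one called with IFNα, and the only one called when IFNα was added to CpG.

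The genes whose pattern over the 12 samples was most like that of each member were found by the root mean square (RMS) difference of centered log2(normalized CPM + 1) values. For Fcer2a they were Rgs2, Pxdc1 and Klf2, with RMS differences of 0.387 to 0.497 where Fcer2a itself had an SD of 2.81. Cr2 was most like Scd1, Pld4 and Gm19585 (0.392 to 0.485, SD 1.83). Cd1d1 was nearest to Tm6sf1, Anxa6 and Gm15848 (0.333 to 0.453, SD 2.08), of which Tm6sf1 is on the MZ list. The closest to Cd36 were Tmed6, Pard3b and Plekha8 (0.522 to 0.571, SD 1.30), the widest distances of the set. Dtx1 had Grk6, Usp11 and Gm17096 nearest (0.190 to 0.218, SD 1.05). Klhl6 had Tmem163, S100a10 and Ccdc125 (0.395 to 0.453, SD 1.32), and Lbh had Pgap1, Pik3cg and Plcb2 (0.250 to 0.330, SD 1.53). Notch2 (Spg21, Sub1, Rnh1) and Cd9 (Cfl2, Uimc1, Poll) varied so little, with SDs of 0.208 and 0.432, that genes with little variation of their own were nearest.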

How the data were processed

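Transcripts were counted in 12 samples (4 groups) of FO B cells. The deposited counts are numbers of UMIs for each gene and were not normalized. The authors, as their methods state, extracted barcodes with UMI-tools 1.1.2, trimmed with Trim Galore 0.6.7, mapped to GRCm38 with HISAT2 2.2.1, assigned reads with featureCounts 2.0.1 and counted unique UMIs (versions from the submitters' processing notes). The strand setting and the annotation release were not given in the sources used here.

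From these counts, edgeR 4.0.16 (R 4.3.3) computed TMM factors, filtered with filterByExpr by group and fitted all 12 samples without covariates (8 residual degrees of freedom). Tests were glmQLFTest, with Benjamini-Hochberg adjustment over all 9431 genes. SEs are the log2 fold change divided by the root of F. A call needed more than a log2 fold change of 1 in either direction, with the adjusted p below 0.1. Groups with at most 3 counts in each sample are given as bounds. UMI floors cover counting error only. The authors' DEG calls were not used.

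The 9 genes and all lists were chosen with earlier results of these data known. The text names the 9 genes, list genes with the 4 smallest p-values among those called in a comparison, and 3 nearest genes by RMS difference. Ccr7 with CpG or against IFNα, Fcrl5, Rbpj and Notch1 with CpG, Pld4, Irf4 and Xbp1 for IFNα added to CpG, Rbx1 and Cul3 with both, Cd68, Adam10 with CpG, and Hes1 for IFNα added to CpG were named after their values were seen. Some genes of these lists are not reported here and were left out of the lists' counts and sums. Further marker lists were transitional B cells and plasma cells.

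In simulated counts where 200 genes were shifted (2 on the log2 scale) in the combination group, the test recovered 100% in CpG + IFNα against CpG among 9120 genes, with 10 false calls. The shifted genes were drawn from abundant genes only, so this recovery does not describe genes as low as Cd1d1 and Cd9 in that comparison. Alternatives were RLE scaling, no filter, DESeq2 1.42.0, a fit of the compared groups only, stricter thresholds, thinning to the smallest library, a replicate block, and each sample left out. Deviations from the group means correlated over 0.1 in 5 of 18 pairs of samples with the same replicate number and in 0 of 36 pairs with different numbers. All 5 joined samples of different stimulated groups, whereas same-number pairs with an unstimulated sample ran from −0.065 to 0.047. No label ties the numbers to animals or days, so the samples were fitted as unpaired. The p-values do not allow for a link between samples of the same number.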

Additional observations from a re-analysis of the deposited data

Results flagged for a closer look

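The effect of IFNα differed with and without CpG for 2 of the 9 genes by the edgeR test of the interaction, which called 3.09% of all tested genes above 0 and 3.17% below. The effect without CpG is against unstimulated cells, for which culture is not stated, so an effect of culture cannot be told apart in it. For Klhl6 the difference was −2.60 on the log2 scale (adjusted p = 3.78e-10): IFNα changed it by 0.25 without CpG and by −2.34 with CpG, and all 3 samples with both stimuli were below all 9 others. Klhl6 was known for its small p-value in CpG + IFNα against CpG when the set was drawn up, and that comparison is a term of this difference, so the adjusted p describes a chosen gene and is not independent evidence. For Cr2 the difference was 1.09 (adjusted p = 0.0306): IFNα changed it by −2.38 without CpG and by −1.28 with CpG. Cr2 was at 17 to 41 counts per sample with both stimuli and at 34 to 91 with CpG, and its call did not hold in several of the alternatives.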

How the results depend on the processing

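Of the 32 called values of the 9 genes, 26 stayed called with the same direction under every alternative refitted for each gene (18, or 17 for the interaction), and 0 reversed; when a log2 fold change over 2 was required, 21 of the 32 were left. The number of the 9 genes called was 2 with IFNα, 1 in CpG + IFNα against CpG and 1 in the interaction under that stricter size (251, 165 and 155 of all 9431 genes), and 1 in the interaction under DESeq2 (439 genes). With single samples left out, the interaction had 1 to 3 calls. Of 22 uncalled values, 7 changed sign. With counts drawn down, Cd36 was at −0.18 for both stimuli against none, and Cd9 at 0.088 for CpG + IFNα against CpG and 0.061 against IFNα. Without a filter, Notch2 was at 0.030 for both against none. With single samples left out, the range for Cd9 was −0.62 to 0.0027 with IFNα, −0.40 to 0.42 for CpG + IFNα against CpG and −0.24 to 0.58 in the interaction, for Notch2 −0.13 to 0.033 for both against none, and for Cd1d1 −0.48 to 0.57 for CpG + IFNα against CpG; the causes were not tested. With a replicate block, 6 genes were called with IFNα, 6 with CpG, 6 with both, 5 in CpG + IFNα against CpG, 7 against IFNα and 2 in the interaction, the same numbers as without it; 10 of 12 samples correlated best with their own number, a hint from the data and not from the design. Cd1d1 and Cd9 are limited by depth.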

Other observations

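Cd93, which encodes the AA4.1 antigen that the sort excluded, had levels of 23.1 ± 1.77 CPM in unstimulated cells (SD, n = 3), 16.7 ± 5.55 with IFNα, 66.3 ± 14.4 with CpG and 23.3 ± 8.06 with both. It was called higher with CpG (log2 fold change 1.52) and lower when IFNα was added to CpG (−1.46), with an interaction of −1.05. Like Cd36, it was highest in the CpG samples. Of 3 tested plasma cell genes, 1 was called lower with IFNα (Irf4, −1.10; 4.07% of all genes), 1 with CpG (Sdc1, −3.37; 25.5%) and 2 with both (25.6%), Xbp1 (−1.01) and Sdc1, which had at most 3 counts per sample there and was at least 13.5-fold lower than in unstimulated cells. Against IFNα alone, the combination had Irf4 higher (1.01, beside 18.7% of all genes) and Sdc1 at least 19.3-fold lower (25.5%). When IFNα was added to CpG, 0 of 3 were called by edgeR, beside 2.95% of all genes higher and 2.01% lower. Irf4 (0.48, adjusted p = 0.0238) missed only the size required there, and Xbp1 (−0.42, adjusted p = 0.12) missed both thresholds. The interaction was called for Irf4 (1.58; 3.09% above 0).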
